A study of Macaca mulatta with 20 samples.

Results

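CYP17A1, CYP19A1, POR, HSD17B1 and HSD17B4 encode enzymes that act in the synthesis or conversion of androgens and oestrogens. Their messenger RNA was followed in corpora lutea of rhesus macaques, untreated or given hormone injections that imitate early pregnancy. Every probe set whose single gene symbol in the platform annotation is one of these 5 genes was taken, which gave 11 of the 52707 probe sets tested and 5 of 14132 gene symbols. A probe set is the group of short probes that an Affymetrix array carries for one transcript sequence. CYP17A1 has 2 probe sets, CYP19A1 has 1, POR has 4, HSD17B1 has 1 and HSD17B4 has 3.

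After ovulation the follicle becomes the corpus luteum, an endocrine gland. Human chorionic gonadotropin (hCG), which the early placenta secretes, keeps the gland active by way of the luteinising hormone receptor. The series holds 20 corpora lutea of female rhesus macaques, in 5 groups of 4. The untreated group was collected on luteal day 10, without hCG. The other animals received recombinant hCG (Novarel) in muscle from luteal day 9, with 2 injections per day and doses that climbed over 9 steps, starting at 15 IU and ending at 2880 IU. Their corpora lutea were collected on luteal day 10, 12, 15 or 18, after 1, 3, 6 or 9 days of hCG. From day 12 on, luteal day, dose and length of hCG treatment increased together, so their parts in a difference from the untreated group cannot be told apart. No strain or age of the animals, and no statement on separate animals within a group, is given in the sources used here, so p-values measure the spread between these samples, which may be technical. All 4 comparisons with the untreated group share the same 4 untreated arrays.

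Oestrogens are made from androgens, and androgens from progestins. CYP17A1 is the cytochrome P450 that hydroxylates progestins and then cuts off their side chain to give androgens. CYP19A1, or aromatase, is the P450 that turns androgens into oestrogens. POR, the NADPH cytochrome P450 oxidoreductase, passes electrons to both of them and to the other P450s of the endoplasmic reticulum. HSD17B1 reduces oestrone to the more potent oestradiol. HSD17B4 is a peroxisomal enzyme of fatty acid beta-oxidation that can also oxidise oestradiol back to oestrone. In the corpus luteum of primates, CYP17A1 is known from cells derived from the theca of the follicle and CYP19A1 from cells derived from its granulosa, and the gland secretes oestradiol beside progesterone. Roles of genes are given as known from human or rodent work. RNA of whole corpora lutea was measured, so fewer cells of a type and less RNA per cell cannot be told apart.

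Levels are signals, the linear brightness of a probe set as the authors scaled it, in intensity units. Errors of signals are standard deviations (SD) over 4 arrays. Changes are differences of the log2 of the signal plus 16, given with their standard error (SE), and this scale understates changes of dim probe sets. A probe set passed the test at an adjusted p under 0.05 by the Benjamini-Hochberg method over all 52707 probe sets in limma. Signals of different probe sets were not set against each other as levels. The number of arrays limits the precision.

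The median signal of an array lay between 31.6 and 46.4, and it averaged 44.1 in the untreated group and 39.6, 38.6, 39.6 and 42.1 on hCG days 10, 12, 15 and 18. This moved the median of all probe sets by -0.12, -0.14, -0.11 and -0.05 on the log2 scale against the untreated group. Of the probe sets, 28.7% to 36.5% per array had a signal under 16. A larger excess of the 3' control probe set over the 5' one goes with less intact RNA. For GAPDH, this difference in log2 signal was 0.38 to 0.94 in hCG arrays and 0.77 to 0.99 in untreated arrays. The same difference for actin was 0.52 to 1.23 in hCG arrays and 0.55 to 0.78 in untreated arrays. Replicate 2 of the untreated group, replicate 1 of hCG day 12 and replicate 2 of hCG day 15 stood apart on principal component 3, at -54.8 to -50.2, with the other 17 arrays at -4.82 to 23.6. Changes of the 5 genes are given without these 3 arrays too. Of 5 marker genes for luteal steroidogenic cells, 2 were measured, and LHCGR, CYP11A1 and SCARB1 were not analysed here. STAR, which brings cholesterol into mitochondria, averaged 14873 to 17387 in the 5 groups, and HSD3B2, which makes progestins, 2340 to 10323.

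Of the 5 genes, 2 had a probe set that changed against the untreated group, both upward. CYP17A1 and POR passed as higher on hCG days 15 and 18, through 1 probe set each, and these probe sets had no difference between hCG days and no slope that passed. No probe set of CYP19A1, HSD17B1 or HSD17B4 passed in any comparison. On hCG days 15 and 18, 2 of the 11 probe sets passed as higher in each, where 0.619% and 1.87% of all probe sets did, and 0 as lower, against 0.674% and 2.02% of all. On hCG days 10 and 12, limma called 0 of the 11. Of all probe sets, 0.651% and 0.157% passed as higher on these days and 0.304% and 0.131% as lower. An unadjusted p under 0.05 was found for 5 and 3 of the 11, and for 6545 and 5566 of all 52707 probe sets. Over the 5 groups together, the moderated F test called 2 of the 11, where it called 4.52% of all probe sets. The median log2 change of the 11 probe sets was 0.04, 0.10, 0.12 and 0.11 on hCG days 10, 12, 15 and 18, beside -0.05, -0.06, -0.05 and -0.03 over all probe sets.

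**Figure D1:**
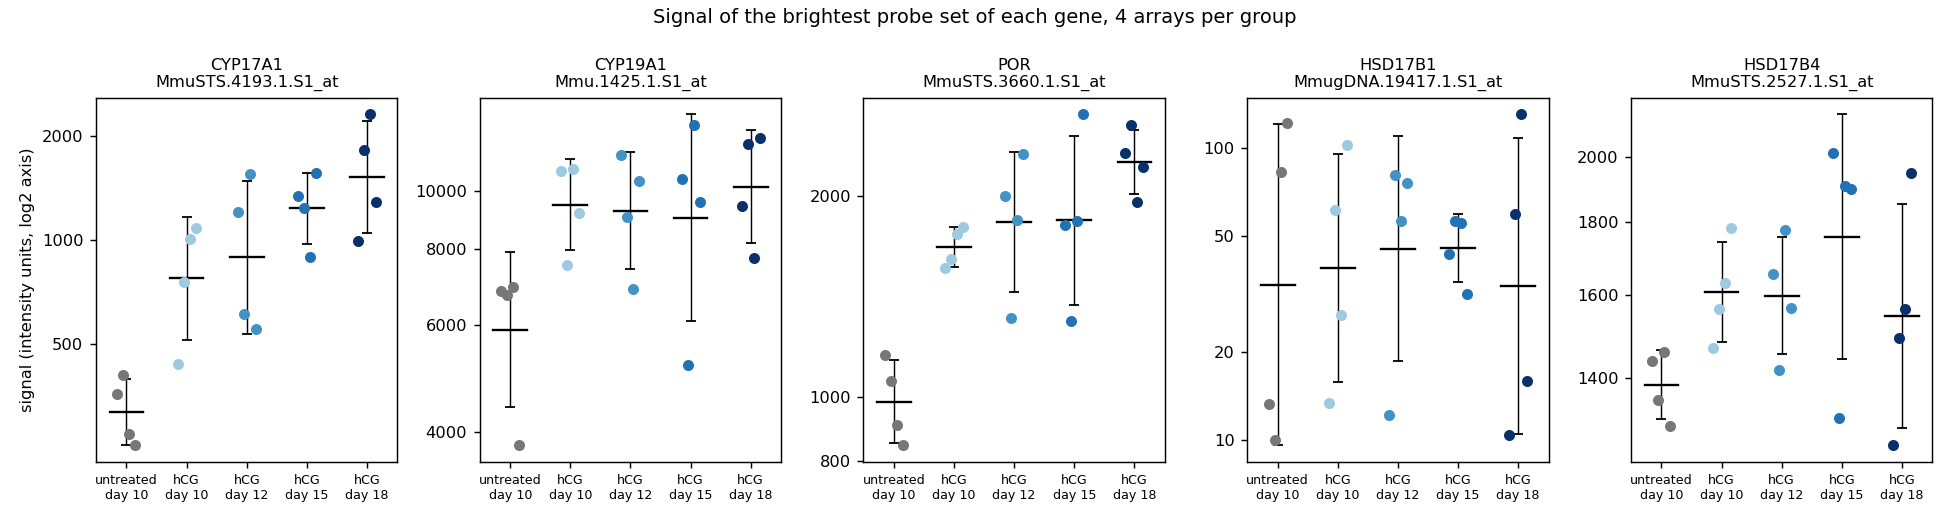
Signal of the probe set with the highest mean of each gene (vertical axis, intensity units on a log2 axis with its own range in each panel) in the 5 groups (horizontal axis). Each dot is 1 array, and the line and bars are the mean and SD of the log2 signals of 4 arrays; the CYP17A1 and POR arrays of every hCG group lie above all untreated arrays, while HSD17B1 spreads from 9.99 to 130.5 with overlapping groups.

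Counted by arrays, 5 probe sets had all 4 arrays of hCG day 10 above all 4 untreated arrays, where 3.42% of all probe sets did, and 2 had all below, where 4.54% did. The counts were 2 above and 1 below on hCG day 12 (2.14% and 3.56% of all), 2 above and 0 below on day 15 (2.64% and 4.56%), and 3 above and 2 below on day 18 (4.79% and 6.37%). The probe sets above were those of CYP17A1 and POR with the highest signal on every hCG day, those of CYP19A1 on days 10 and 18, and on day 10 also the dim CYP17A1 probe set and the brightest HSD17B4 probe set. Those below all belong to POR.

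CYP17A1 rose more than any other of the 5 genes on hCG days 15 and 18. By probe set MmuSTS.4193.1.S1_at, the 4 untreated arrays gave signals of 358, 406, 274 and 255. The arrays of hCG day 10 gave 439, 753, 1007 and 1080.1, and those of day 12 gave 1203, 610, 1552 and 551. On day 15 the signals were 1343, 1239, 892 and 1558, and on day 18 they were 993, 1820, 2302 and 1282. All 16 hCG arrays lay above the highest untreated array, the closest being hCG day 10 replicate 1, while the hCG groups overlapped each other. The group mean was 323 ± 70.9 without hCG and 820 ± 290.1, 979 ± 482, 1258 ± 278 and 1599 ± 580 on hCG days 10, 12, 15 and 18 (SD, n = 4 each).

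On hCG day 18, CYP17A1 rose 4.60-fold against the untreated group (log2 change 2.20 ± 0.34, SE, n = 4 per group, 95% interval 1.50 to 2.91, limma adjusted p = 0.00067). On day 15 it rose 3.74-fold (1.90 ± 0.34, adjusted p = 0.00625). The changes of 1.25 on day 10 and 1.44 on day 12 did not pass (limma adjusted p = 0.0961 and 0.0796). They passed when hCG day 10 replicate 1 was left out (1.51, limma adjusted p = 0.0348) and when hCG day 12 replicate 2 was left out (1.62, limma adjusted p = 0.0474). Without the 3 arrays that stood apart, the change was 2.02 on day 15 and 2.32 on day 18 (limma adjusted p = 0.0346 and 0.003). In the mean over both CYP17A1 probe sets it was smaller, at 1.10 and 1.28 (limma adjusted p = 0.025 and 0.00368).

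In order of mean, CYP17A1 ran from untreated through hCG days 10, 12, 15 and 18, and no neighbours in that order passed the test. The steps between hCG days were 0.20, 0.46 and 0.30 on the log2 scale, each with an SE of 0.34 (limma adjusted p = 0.965, 1.0 and 0.924). The widest span, hCG day 18 over hCG day 10, was 0.96 (95% interval 0.25 to 1.66) and did not pass (limma adjusted p = 0.117). The slope over the 16 hCG arrays was 0.12 ± 0.04 log2 units per day of hCG (limma adjusted p = 0.08), and it passed without hCG day 12 replicate 3 (0.13, limma adjusted p = 0.0497).

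The other CYP17A1 probe set, MmugDNA.37726.1.S1_at, was dim, with 10 of 20 arrays under 16 and a highest signal of 45.8. Its signals on hCG day 10 were 20.6, 16.8, 19.4 and 26.9, against 10.8, 12.4, 14.9 and 9.29 in untreated arrays. Those groups did not overlap, but the change of 0.40 ± 0.22 did not pass (limma adjusted p = 0.466). On days 12, 15 and 18 its changes were 0.10, 0.29 and 0.36, the groups overlapped, and none passed (lowest limma adjusted p = 0.469). All 4 changes have the sign of the brighter probe set.

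POR, the electron donor of both P450s, was higher under hCG by its brightest probe set and not by its other 3. By MmuSTS.3660.1.S1_at, the untreated arrays gave 1155, 1056, 906 and 846. The arrays of hCG day 10 gave 1555, 1605, 1749 and 1796, and those of day 12 gave 1998, 1311, 1837 and 2307. On day 15 the signals were 1809, 1298, 1832 and 2644, and on day 18 they were 2312, 2547, 1958 and 2203. Every hCG array lay above every untreated array, and the arrays of day 18 also lay above those of hCG day 10. The mean was 991 ± 141 without hCG and 1676 ± 114, 1863 ± 417, 1896 ± 556 and 2255 ± 244 on hCG days 10, 12, 15 and 18 (SD, n = 4 each).

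By this probe set, POR rose 2.26-fold on hCG day 18 (log2 change 1.18 ± 0.19, SE, n = 4 per group, 95% interval 0.78 to 1.57, limma adjusted p = 0.000983) and 1.85-fold on day 15 (0.89 ± 0.19, limma adjusted p = 0.0208). The changes of 0.76 on day 10 and 0.88 on day 12 did not pass (limma adjusted p = 0.0649 and 0.0527), and both passed without hCG day 12 replicate 2 (0.0414 and 0.0151), without hCG day 15 replicate 2 (0.0364 and 0.0251) or without hCG day 15 replicate 4 (0.0341 and 0.0238, all limma adjusted p). Of these, only the day 12 change without hCG day 12 replicate 2 differed, at 1.04. The others left out an array of neither compared group, which moved the SE and adjustment but not the change. The changes on days 10 and 12 also both passed among the upper 50% of probe sets (limma adjusted p = 0.0369 and 0.0298) and with array weights (0.0496 and 0.0264), and day 12 with median-centring (0.0414) and a pseudocount of 64 (0.0467). The day 15 call ended without untreated replicate 3, untreated replicate 4 or hCG day 15 replicate 4 (limma adjusted p = 0.0631, 0.0724 and 0.0876). Without the 3 arrays that stood apart, the changes were 1.09 on day 15 and 1.21 on day 18 (limma adjusted p = 0.0208 and 0.00207).

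The means of the brightest POR probe set ran in the same order, and no neighbours passed the test. Its steps were 0.12, 0.01 and 0.29 (limma adjusted p = 0.956, 1.0 and 0.832). For hCG day 18 over hCG day 10, 2 of the 11 probe sets had all arrays higher, where 5.6% of all probe sets did. Both belong to POR, the brightest and MmugDNA.34575.1.S1_at. The latter averaged 505 in untreated arrays, 376 on hCG day 10 and 442 on day 18, and lay below all untreated arrays on both days. The change of the brightest POR probe set was 0.42 and did not pass (95% interval 0.03 to 0.81, limma adjusted p = 0.246). The slope was 0.05 ± 0.02 per day of hCG (limma adjusted p = 0.269).

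The remaining POR probe sets had log2 changes below 0 on all 4 hCG days, and none passed. For MmugDNA.34575.1.S1_at the signals on hCG day 10 were 399.9, 353, 340.4 and 413, against 546, 506, 469 and 499 in untreated arrays, without overlap. Its change was -0.41 ± 0.11 on that day (limma adjusted p = 0.0944) and -0.21, -0.18 and -0.18 on days 12, 15 and 18 (0.518, 0.573 and 0.478). Its hCG arrays all lay below the untreated ones on days 10, 12 and 18. MmugDNA.34575.1.S1_s_at had log2 changes of -0.41, -0.24, -0.20 and -0.28 (limma adjusted p = 0.106, 0.482, 0.518 and 0.216), and its arrays lay below the untreated ones on days 10 and 18. MmugDNA.34574.1.S1_at had log2 changes of -0.40, -0.22, -0.30 and -0.23, with overlapping groups (lowest limma adjusted p = 0.6). With a pseudocount of 64, the changes of MmugDNA.34575.1.S1_at and MmugDNA.34575.1.S1_s_at on day 10 were -0.37 each and passed (limma adjusted p = 0.0268 and 0.0369).

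Within an array, the brightest POR probe set exceeded MmugDNA.34575.1.S1_at by 2.07 to 2.53 log2 units (mean 2.30) on hCG day 18, against 0.74 to 1.06 (mean 0.94) in untreated arrays. The 2 probe sets thus gave unequal changes within the same arrays. Averaged over the 4 probe sets, the log2 change of POR was -0.12, 0.06, 0.05 and 0.12 on hCG days 10, 12, 15 and 18, and the calls on days 15 and 18 ended (limma adjusted p = 0.915 and 0.715). Within groups, deviations of the brightest probe set had an r of -0.41 with those of the array median (rho -0.37, permutation p = 0.1947 and 0.1701 over 20 arrays), and an r of -0.35 without the 2 arrays farthest from the middle. For MmugDNA.34575.1.S1_at the r was 0.74 (rho 0.75, permutation p = 0.0013 and 0.0044, adjusted over 4 relations 0.0027 and 0.0089), or 0.64 without 2 arrays. For MmugDNA.34574.1.S1_at it was 0.76 (rho 0.82, permutation p = 0.0007 and 0.0001, adjusted 0.0027 and 0.0002), or 0.66 without 2 arrays, and for MmugDNA.34575.1.S1_s_at 0.62 (rho 0.53, permutation p = 0.0302 and 0.0433, adjusted 0.0403 and 0.0578), or 0.42. The untreated group had the highest mean of array medians. With each array centred on its median, the changes of MmugDNA.34575.1.S1_at shrank to -0.30, -0.07, -0.06 and -0.13 on hCG days 10, 12, 15 and 18, and those of the brightest probe set were 0.87, 1.03, 1.00 and 1.23, with the calls on days 15 and 18 kept (limma adjusted p = 0.0225 and 0.00213). Centring did not end the disagreement. Under every alternative run, the changes of the POR probe sets other than the brightest stayed below 0 on every hCG day. The part of the array level in the POR changes was not tested, and neither was which probe sets report the gene's messenger RNA.

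**Figure D2:**
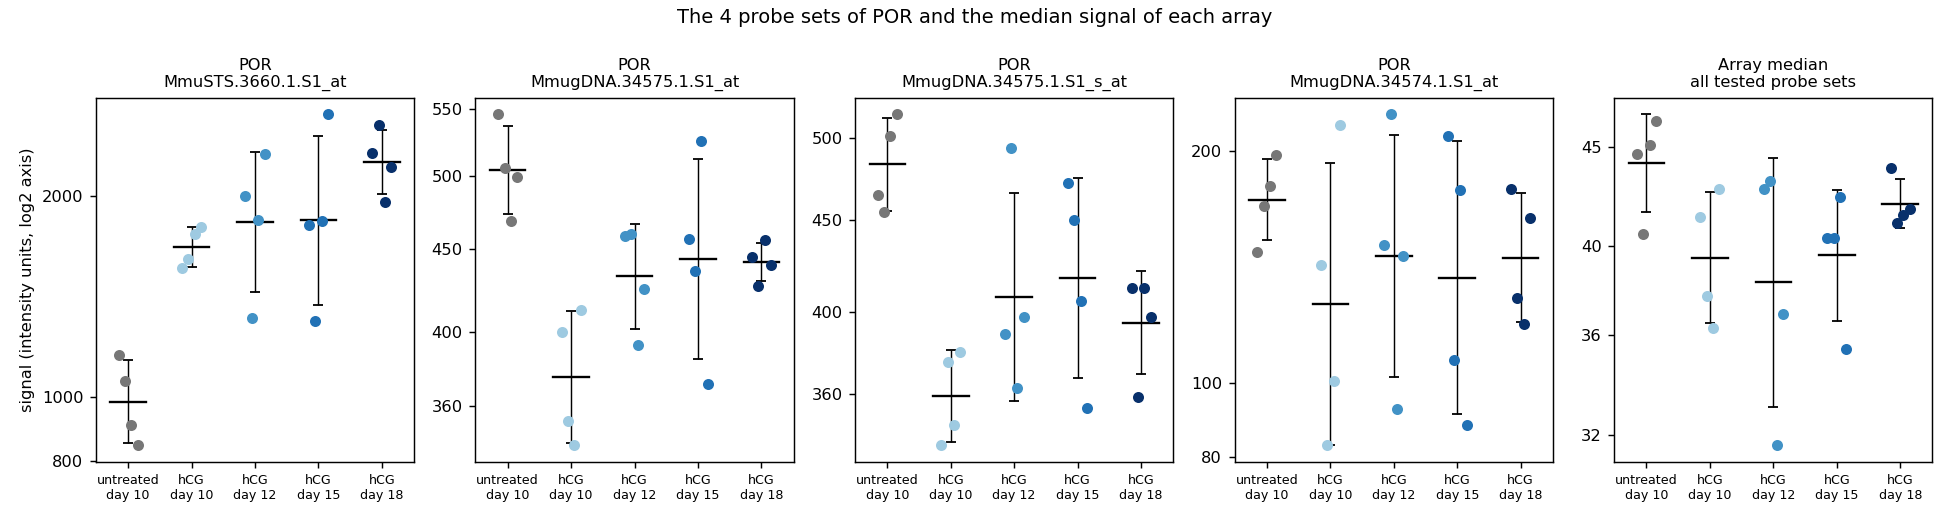
Signal of the 4 POR probe sets and, at the right, the median signal of each array (vertical axes, intensity units on log2 axes with their own ranges) in the 5 groups. Each dot is 1 array, and the line and bars are the mean and SD of the log2 signals; MmuSTS.3660.1.S1_at is higher in every hCG array than in every untreated array, whereas MmugDNA.34575.1.S1_at averages 376 to 447 in the hCG groups and 505 in the untreated group.

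CYP19A1, aromatase, was measured by 1 probe set, Mmu.1425.1.S1_at, and its means were higher in all hCG groups without passing the test. The untreated arrays gave 6827, 6733, 6927 and 3806. The arrays of hCG day 10 gave 10767, 7532, 10852 and 9170.2, and those of day 12 gave 11461, 9033, 6878 and 10348. On day 15 the signals were 10432, 5164, 12832 and 9575, and on day 18 they were 9424, 11921, 7749 and 12203. The arrays of days 10 and 18 lay above all untreated arrays, hCG day 12 replicate 3 lay among the untreated arrays, and hCG day 15 replicate 2 below 3 of them. Untreated replicate 4 was low, at 3806, where the other 3 stood at 6733 to 6927.

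The CYP19A1 mean was 6073 ± 1514 without hCG and 9580.3 ± 1569, 9430.1 ± 1970, 9501 ± 3203 and 10324 ± 2123 on hCG days 10, 12, 15 and 18 (SD, n = 4 each). Against the untreated group these are log2 changes of 0.68, 0.65, 0.61 and 0.78, each with an SE of 0.26 (limma adjusted p = 0.264, 0.379, 0.341 and 0.109). The 95% interval on day 18 was 0.24 to 1.32. The day 18 change passed without hCG day 15 replicate 2 (limma adjusted p = 0.0485). That array is in neither compared group, so the change itself stayed at 0.78 and only its SE and adjustment moved. Without the 3 arrays that stood apart, the day 18 change was 0.85 (limma adjusted p = 0.0647). Without untreated replicate 4, the low array, the CYP19A1 changes were smaller, at 0.47, 0.44, 0.40 and 0.57 on hCG days 10, 12, 15 and 18 (limma adjusted p = 0.534, 0.638, 0.626 and 0.302). Between the hCG groups, the steps of CYP19A1 were -0.03, -0.04 and 0.17 (limma adjusted p from 0.954 to 1.0), and the slope was 0.01 per day of hCG (95% interval -0.05 to 0.07).

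HSD17B1, which makes oestradiol from oestrone, was measured by 1 dim probe set, MmugDNA.19417.1.S1_at, with 6 of 20 arrays under 16. The untreated arrays gave 13.3, 9.99, 83.1 and 122, and those of hCG day 10 gave 13.4, 61.5, 26.8 and 102. On day 12 the signals were 12.2, 80.9, 56.2 and 76.2, on day 15 they were 43.5, 56.5, 55.5 and 31.7, and on day 18 they were 10.4, 59.5, 130.5 and 15.98. High and low arrays occurred in every group except day 15, and all groups overlapped. The log2 changes against the untreated group were 0.04, 0.20, 0.12 and -0.04, each with an SE of 0.60 (limma adjusted p from 0.932 to 0.991). The 95% interval on day 18, from -1.29 to 1.21, leaves room for changes of more than 2-fold in either direction. Without the 3 arrays that stood apart, the changes were -0.34, 0.23, -0.33 and -0.42 (lowest limma adjusted p = 0.832), so the sign on days 10 and 15 depended on those arrays.

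No HSD17B4 probe set passed on any hCG day. By its brightest probe set, MmuSTS.2527.1.S1_at, the untreated arrays gave 1438, 1350.5, 1460.0 and 1296. The arrays of hCG day 10 gave 1470.1, 1564, 1630.4 and 1783, and those of day 12 gave 1655, 1419, 1777 and 1567. On day 15 the signals were 2012, 1312, 1907 and 1899, and on day 18 they were 1256, 1493, 1565 and 1949. The arrays of hCG day 10 lay above the untreated ones, and the later groups overlapped them. Replicate 2 of day 15 was far below the other 3 of its group.

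The HSD17B4 log2 changes were 0.21, 0.21, 0.34 and 0.16 on hCG days 10, 12, 15 and 18, each with an SE of 0.14 (limma adjusted p = 0.586, 0.636, 0.342 and 0.694). The 95% interval on day 18 was -0.14 to 0.46. Without the 3 arrays that stood apart, the day 15 change was 0.47 (limma adjusted p = 0.207). The second-brightest HSD17B4 probe set had changes of -0.01 to 0.11, and the dim MmugDNA.29085.1.S1_at had changes of -0.26 to 0.01, with limma adjusted p of 0.675 or more in both. The 3 probe sets thus did not all have the same sign on any hCG day.

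**Figure D3:**
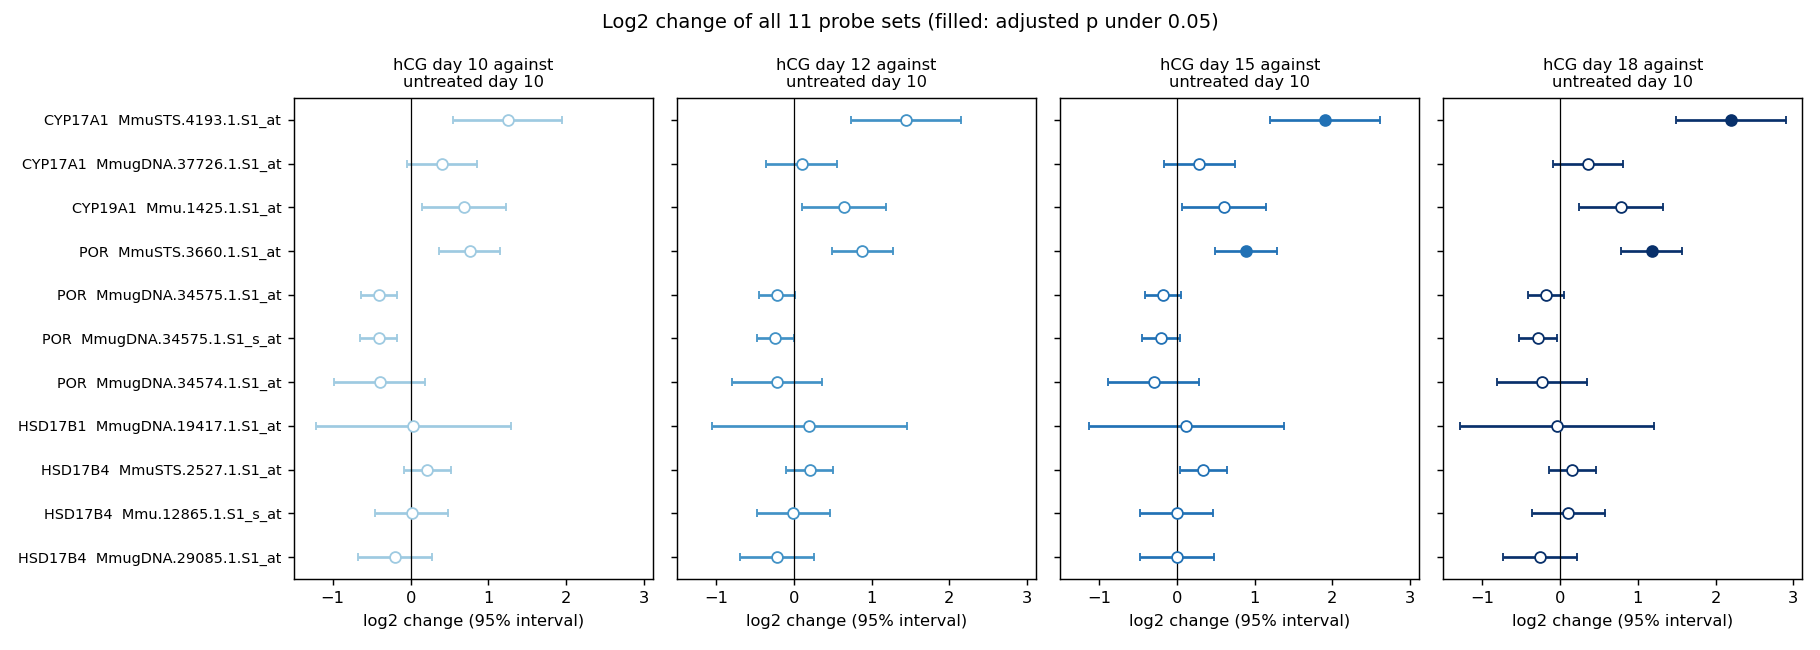
Log2 change of all 11 probe sets (rows) on each hCG day against the untreated group (panels), with 95% intervals from limma. Filled dots passed at an adjusted p under 0.05: CYP17A1 and POR with 1 probe set each on days 15 and 18, at 1.90 and 2.20 and at 0.89 and 1.18.

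Between hCG days, limma called 0 of the 11 probe sets in all 6 pairs and 0 for the slope. At an unadjusted p under 0.05 the counts were 0 for days 12 over 10, 15 over 12 and 18 over 15. They were 1 for day 15 over 10, 1 for day 18 over 12, 2 for day 18 over 10 and 2 for the slope. Among all 52707 probe sets, 4362 had such a p for day 12 over 10, 6308 for day 15 over 10 and 7076 for day 18 over 12. For day 18 over 10 and for the slope, 9146 and 9386 of all probe sets did. Of all probe sets, 0.518% passed for day 12 over 10, 1.9% for day 15 over 10, 1.43% for day 18 over 12 and 5.21% for day 18 over 10. For days 15 over 12 and 18 over 15, limma called 0.0% of all probe sets, with 2705 and 3688 at an unadjusted p under 0.05. The slope passed upward in 2.31% and downward in 2.73% of all probe sets.

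The 5 genes differed in how much of their variation lay between the groups. For CYP17A1 and POR, 74.2% and 74.1% of the variance of the brightest probe set lay between groups, beside 40.7% for CYP19A1, 30.5% for HSD17B4 and 1.14% for HSD17B1, with a median of 24.6% over all probe sets. The spread within groups was an SD of 0.52 log2 units for CYP17A1, 0.39 for CYP19A1, 0.27 for POR, 0.19 for HSD17B4 and 0.93 for HSD17B1, with a median of 0.28 over all. These 2 measures come from the same values as the tests above.

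Within groups, none of the relations between the genes passed a test. Deviations from the group mean of the 5 brightest probe sets and of the array median gave 15 relations over 20 arrays. Their Pearson p came from 100000 permutations within groups, and the lowest adjusted p over the 15 was 0.2895. The highest r was 0.53 between CYP19A1 and POR (Spearman rho 0.41, permutation p = 0.0781 and 0.1304, adjusted p = 0.2895 and 0.3911), and it was 0.26 without the 2 arrays farthest from the median. CYP19A1 and HSD17B1 had an r of -0.46 (rho -0.40, permutation p = 0.0346 and 0.1012, adjusted p = 0.2895 and 0.3793), or -0.40 without 2 arrays. CYP17A1 and POR, whose brightest probe sets were both higher under hCG, had an r of 0.23 within groups (rho 0.28, permutation p = 0.4043 and 0.2603, adjusted p = 0.6064 and 0.4339).

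Among 9728 genes whose probe set had a mean in the upper 50%, the genes most like each member over the 20 arrays were named by Pearson r of log2 values. This is a description over points that share the 5 groups and has no p. The genes were picked over the same arrays, so their day 18 changes follow in part from that choice. This holds for the genes named for each member, and their limma p-values do not allow for it. For CYP17A1 they were PLAAT3, a phospholipase (0.903), MGARP, a mitochondrial protein (0.883), STAT6, the transcription factor of interleukin 4 signalling (0.882), and TM2D2 (0.876). MGARP rose by 1.86 and PLAAT3 by 1.54 on hCG day 18 against the untreated group (limma adjusted p = 5.05e-06 and 3.15e-05). The most opposite were C18H18orf54 (-0.874) and CCNA2, a cyclin of DNA replication and mitosis (-0.864), which fell by 1.33 on that day (limma adjusted p = 7.76e-05).

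For POR the most alike were LOC708750 (0.869), BTD, the enzyme that recycles biotin (0.864), PSME3, a proteasome activator (0.862), and ENTPD6, a nucleotidase (0.86). The most opposite were NEDD1, a centrosome protein (-0.871), and LOC699168 (-0.867). PSME3 rose by 1.83 and NEDD1 fell by 2.27 on hCG day 18 (limma adjusted p = 0.000285 and 8.43e-06).

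For CYP19A1 the most alike were ALDOA, a glycolytic enzyme (0.856), LOC700472 (0.847), AKIRIN2, a nuclear protein (0.831), and GCLC, which starts glutathione synthesis (0.817). CCNJ (-0.85) and PET100 (-0.831) were the most opposite. None of these 6 passed on hCG day 18, GCLC being the closest (0.68, limma adjusted p = 0.051). For HSD17B1 they were TCEAL7 (0.814), TNFRSF1B (0.81), SLC16A11 (0.752) and NINL (0.74), with LOC706960 (-0.829) and TMEM71 (-0.704) opposite. For HSD17B4 they were PLXNA2 (0.778), PIK3R4 (0.75), HSPA9 (0.748) and LOC574310 (0.744), with GPRIN3 (-0.785) and TSR2 (-0.784) opposite.

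Among genes that supply the precursors of androgens, HSD3B2 and FDXR fell on hCG day 18. Of 8 listed genes for the supply and cleavage of cholesterol and the first steps after it, 4 were measured. Of these, 0, 0, 1 and 2 fell on hCG days 10, 12, 15 and 18 against the untreated group, and 0 rose. Over all probe sets, the share that passed as lower was 0.304%, 0.131%, 0.674% and 2.02% on these days. This list and those below were chosen with earlier results of these data known. The median log2 change of the 4 was 0.19, -0.11, -0.14 and -0.37. HSD3B2, which turns pregnenolone into progesterone and its androgen counterpart into androstenedione, averaged 2340 ± 447 on hCG day 18, against 8320.3 ± 1213 in untreated arrays (log2 change -1.83, limma adjusted p = 4.44e-05). On day 15 it averaged 4347 ± 1321 (-0.97, limma adjusted p = 0.0243). FDXR, the electron donor chain's first enzyme for mitochondrial P450s, averaged 909 ± 249 on day 18, against 1526 ± 295 in untreated arrays (-0.75, limma adjusted p = 0.026). The other FDXR probe set had a change of -0.55 on day 18 (limma adjusted p = 0.071). STAR had a change of 0.23 on day 18 (limma adjusted p = 0.615).

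Among partners of androgen synthesis and 5-alpha reduction, 4 of 10 listed genes were measured, and HSD3B2 was the 1 that passed. CYB5A, the cytochrome b5 that favours the side-chain cleavage by CYP17A1, averaged 8970.0 ± 835 on hCG day 18 and 9271 ± 709 on hCG day 10, against 6542 ± 1376 in untreated arrays. Its changes of 0.47 and 0.52 did not pass (limma adjusted p = 0.0669 and 0.0913). CYB5B and SRD5A3, the other 2 measured, had changes of 0.06 and 0.18 on day 18 (limma adjusted p = 0.868 and 0.695).

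Of 10 listed hydroxysteroid dehydrogenases of the same family beside HSD17B1 and HSD17B4, 4 were measured. By its brightest probe set, 1 passed as higher on hCG days 10 and 18, where 0.651% and 1.87% of all probe sets did. This was HSD17B7, which acts on oestrone and in cholesterol synthesis. By the brightest of its 3 probe sets it averaged 4739 ± 1242 on hCG day 10, against 1452 ± 507 in untreated arrays (log2 change 1.71, limma adjusted p = 0.00429), and 3170 ± 757 on day 18 (1.14, limma adjusted p = 0.0265). Its other 2 probe sets had changes of 1.34 and 2.37 on day 10 (limma adjusted p = 0.00261 and 0.000322) and of 0.67 and 1.43 on day 18 (0.0844 and 0.00417). On days 12 and 15 the first of these 2 had changes of 0.57 and 0.54 (limma adjusted p = 0.338 and 0.286). The second passed on both days, at 1.38 and 1.16 (limma adjusted p = 0.0291 and 0.0377), while the brightest HSD17B7 probe set did not. HSD17B2, which inactivates oestradiol and testosterone, averaged at most 42.3 in an hCG group, on day 10, against 6.78 in untreated arrays (1.08, limma adjusted p = 0.39). HSD17B8 and HSD17B13 did not pass on any hCG day. Of 11 listed genes of oestrogen and androgen inactivation, 5 were measured and limma called 0 on any hCG day, with CYP1B1 at 0.62 on day 18 (limma adjusted p = 0.615).

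POR serves many P450s beside CYP17A1 and CYP19A1. Of 19 listed microsomal P450s and other enzymes or carriers of the same electron chain, 17 were measured, and 2, 2, 3 and 4 rose on hCG days 10, 12, 15 and 18, while 0 fell. Over all probe sets, the share that passed as higher was 0.651%, 0.157%, 0.619% and 1.87% on these days. The median change of the 17 was 0.07, 0.04, 0.10 and 0.10. The genes that rose act in the synthesis of cholesterol and in the activation of vitamin D. CYP51A1, the P450 that demethylates lanosterol, averaged 3275 ± 882 on day 18, against 1071 ± 340 in untreated arrays (1.61, limma adjusted p = 0.000526). SQLE, squalene epoxidase, rose by 1.56 and DHCR7, the last enzyme of one branch of cholesterol synthesis, by 1.98 (limma adjusted p = 0.00338 and 0.000659). CYP2R1, the vitamin D hydroxylase, averaged 190.2 ± 38.8, against 69.3 ± 19.9 (1.29, limma adjusted p = 0.000983).

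**Figure D4:**
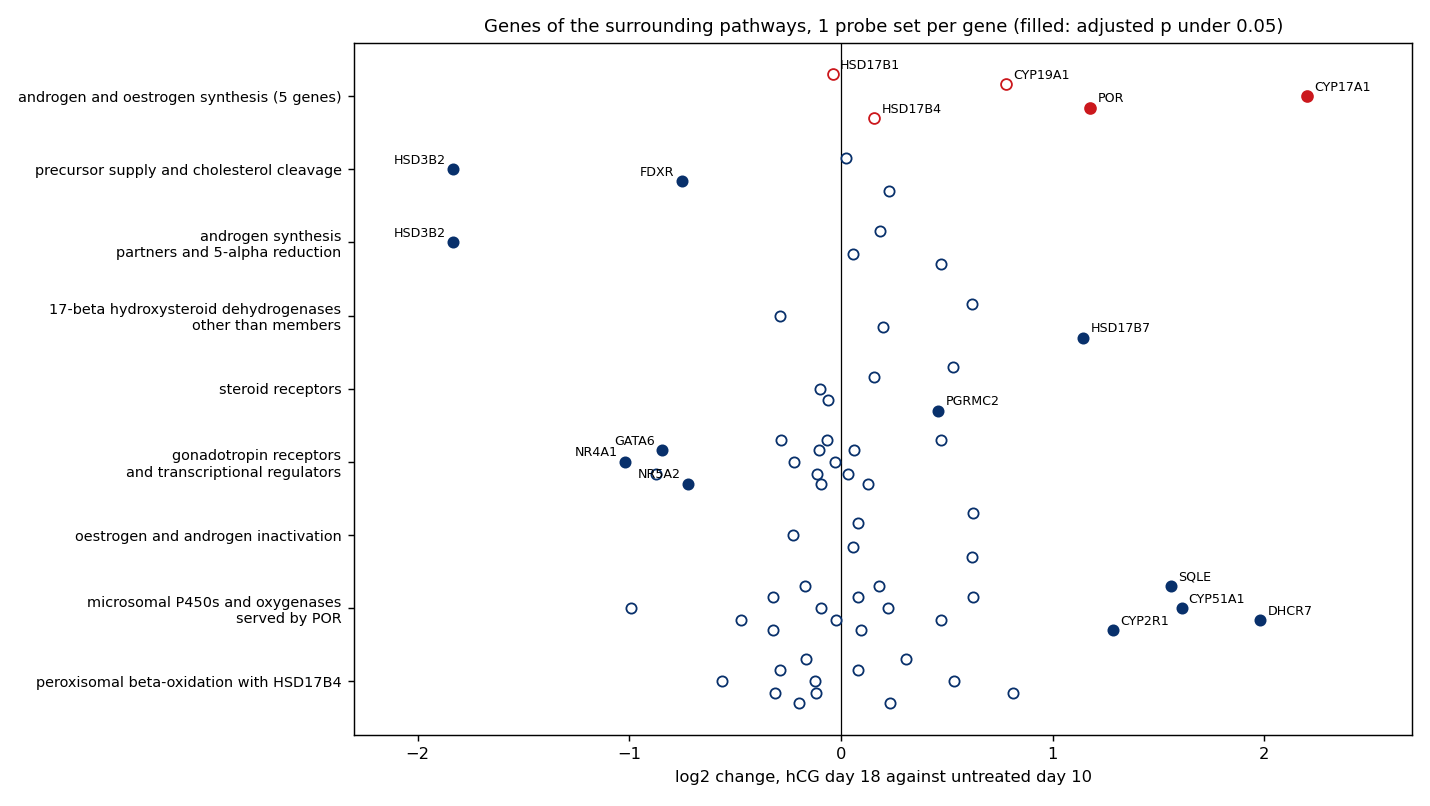
Log2 change on hCG day 18 against the untreated group (horizontal axis) for the 5 genes (red, brightest probe set) and for the measured genes of 8 lists of neighbouring pathways (rows, blue, 1 probe set per gene). Filled dots passed at an adjusted p under 0.05 in limma and are named; CYP17A1 lies farthest to the right at 2.20 and HSD3B2, which 2 lists hold, farthest to the left at -1.83.

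HSD17B4 works in peroxisomal beta-oxidation. Of 21 listed genes of that pathway, 12 were measured. On hCG day 10, 1 of them rose, where 0.651% of all probe sets did, and 0 passed on days 12, 15 and 18. The median change of the 12 was 0.29, 0.17, 0.06 and -0.12 on hCG days 10, 12, 15 and 18. CRAT, carnitine acetyltransferase, averaged 685 ± 74.5 on hCG day 10, against 367 ± 43.5 in untreated arrays (0.87, limma adjusted p = 0.015). The other CRAT probe set had a change of 0.24 on that day (limma adjusted p = 0.454). Over the hCG course 3 of the 12 had a downward slope that passed, ACOX3, EHHADH and CRAT (limma adjusted p = 0.0443, 0.0368 and 0.0148), where HSD17B4 itself had a slope of -0.002 (0.979). Over all probe sets, 2.73% had a downward slope that passed.

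Among regulators of steroid enzyme genes, NR5A2, GATA6 and NR4A1 fell. Of 19 listed gonadotropin receptors and transcriptional regulators, 15 were measured, and 0, 0, 1 and 3 fell on hCG days 10, 12, 15 and 18, while 0 rose. Over all probe sets, the share that passed as lower was 0.304%, 0.131%, 0.674% and 2.02% on these days. The median change of the 15 was -0.05, -0.08, -0.27 and -0.10. NR5A2, a nuclear receptor known to act on the CYP19A1 promoter in the ovary, averaged 1098 ± 63.0 on day 18, against 1822 ± 73.1 in untreated arrays (-0.72, limma adjusted p = 0.0217). On day 15 it averaged 1133 ± 279 (-0.72, limma adjusted p = 0.0465), and its other 2 probe sets also fell on both days (-0.94 to -0.92 on day 15 and -1.13 to -0.88 on day 18, limma adjusted p from 0.000846 to 0.00964). GATA6, a zinc finger factor of steroid-producing cells, averaged 1495 ± 249 on day 18, against 2685 ± 307 (-0.84, limma adjusted p = 0.00279). NR4A1, an early response receptor, averaged 192 ± 57.9 on day 18, against 405 ± 122 (-1.02, limma adjusted p = 0.0298), and its other probe set had a change of -1.07 (limma adjusted p = 0.0932). NR5A1, which activates many steroid enzyme genes, had a change of -0.03 on day 18 (limma adjusted p = 0.986).

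Of 9 listed receptors for sex steroids, 5 were measured, and 1 passed as higher on hCG day 18, where 1.87% of all probe sets did. PGRMC2, a membrane component that binds haem and interacts with P450s, was the 1 that rose on hCG day 18 (2180.0 ± 199, against 1583 ± 166 in untreated arrays, 0.46, limma adjusted p = 0.0463). Its other 3 probe sets had changes of 0.05 to 0.25 (lowest limma adjusted p = 0.511). The oestrogen receptor genes ESR1 and ESR2 had changes of -0.06 and -0.10 on that day (limma adjusted p = 0.935 and 0.933).

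Markers of cell types that the tissue can hold were read beside these changes. Of 5 theca markers, PTCH1, HHIP and GLI1 were measured, 0 of 3 passed on any hCG day, and their summed signal was 88.5 to 124 on hCG day 18, against 115 to 133 in untreated arrays. Of 5 granulosa markers, INHA and AMH were measured and 0 passed, with a sum of 6976 to 11121 on day 18, against 5526 to 6998, nearly all of it INHA. Of 6 macrophage markers, 5 were measured, and their sum was 3502 to 6545 on day 18, against 1712 to 4553 in untreated arrays. Of these, CSF1R, the receptor for a macrophage growth factor, rose on day 18 (731 ± 146, against 358 ± 138, log2 change 1.06, limma adjusted p = 0.0121). An upward slope over the hCG days passed for 4 of the 5, where it did for 2.31% of all probe sets. The macrophage sum was 2207 to 2943 on hCG day 10, 2142 to 3016 on day 12 and 2542 to 4354 on day 15. The part of macrophages in the day 18 changes was not tested.

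Adrenal cortex markers were included because CYP17A1 is also an adrenal gene. All 3 were measured, and their sum was 574 to 1772 on hCG day 18, against 83.2 to 430.3 in untreated arrays, nearly all of it CYP11B1. CYP11B1 is a mitochondrial hydroxylase that has a near-identical copy, CYP11B2, so that its probe sets are uncertain. By the brightest it averaged 1019 ± 522 on day 18, against 195 ± 144 (2.44 ± 0.52, SE, limma adjusted p = 0.01). Another CYP11B1 probe set had a change of 1.46 on day 18 (limma adjusted p = 0.0218). The part of adrenal cells in the CYP17A1 changes was not tested. MC2R, the receptor for adrenocorticotropic hormone, stayed under a signal of 16 in all 20 arrays, and CYP21A2 averaged 13.7 on day 18, against 18.9. Of the endothelial, smooth muscle, lymphocyte and stromal markers, limma called 0 of 7, 4, 3 and 5 measured against the untreated group on any hCG day.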

How the data were processed

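Messenger RNA of 20 rhesus macaque corpora lutea was measured on Affymetrix arrays with biotin-labelled target. The deposited values are 1 signal intensity per probe set and array, made by the authors with GCOS, per the submitters' processing notes; version, scaling target and array files are not given in the sources used here. The mean after trimming 2% at each end was 200.01 to 200.02 on all arrays, as after scaling to a common target.

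Of 52865 probe sets, 158 array controls were left out and 52707 tested. By the platform annotation 24956 carry 1 symbol, 361 several and 27390 none; 24616 matched RefSeq by gene ID and 0 symbols changed. Log2 of the signal plus 16 was fitted with limma (version 3.58.1, R 4.3.3), with 1 mean per group over 20 arrays and eBayes; contrasts, a moderated F and a slope over the 16 hCG arrays were tested, with Benjamini-Hochberg adjustment within each. The procedure was tested on simulated data. Figures used matplotlib (version 3.10.9) in Python (version 3.11.15).

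A gene's main probe set has the highest mean log2 value. List genes are named when called against the untreated group (up to 5 a list by adjusted p, else up to 2), and the 4 most and 2 least alike genes per member; CYB5A, CYB5B, SRD5A3, HSD17B8, HSD17B13, INHA, NR5A1, ESR1, ESR2, ACOX3, EHHADH, GLI1, CYP21A2 and MC2R were named after their values were seen. The members and lists were chosen with earlier results of these data known.

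Alternatives were pseudocounts of 1 and 64, array weights, median-centring, quantile normalisation, the upper 50% by mean signal, a replicate block, fits of 8 arrays, averaging the probe sets of a gene, and leaving out each array or the 3 that stood apart. What the replicate numbers stand for is not given in the sources used here, and outside the replicate block the samples were treated as unpaired.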

Additional observations from a re-analysis of the deposited data

Results flagged for a closer look

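In 55 sets of 4 arrays (11 probe sets in 5 groups), 2 arrays stood far from the other 3 of their group by Dixon's gap over range at the 95% level, where chance gives about 1 set in 20. CYP19A1 in untreated replicate 4 had a signal of 3806, with the other untreated arrays at 6733 to 6927 (gap over range 0.938). HSD17B4, by MmuSTS.2527.1.S1_at, had 1312 in hCG day 15 replicate 2, with the others of the group at 1899 to 2012 (0.84). That array is 1 of the 3 arrays that stood apart on principal component 3.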

How the results depend on the processing

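Of 66 member results (11 probe sets, the 4 comparisons with the untreated group, the F test and the slope), 6 passed. They were repeated in 1898 values under alternatives: 1870 kept their side of the threshold, 7 calls ended, 21 were gained and 0 called values changed sign. Most of the 1870 are results that did not pass in either fit. Without a call, 76 values had a sign other than in the main fit. The CYP17A1 calls on days 15 and 18 held under every alternative run (adjusted p up to 0.0346 and 0.00368), at 1.10 and 1.28 in the mean over both probe sets. The POR day 18 call ended only in the mean over its probe sets (0.12, adjusted p = 0.715), as did its F call (0.69); the day 15 call also ended in the fit of 8 arrays (adjusted p = 0.121) and without any of 3 arrays named above; the cause was not tested.

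Counts of changed probe sets over the array moved more. In the order F, hCG days 10, 12 and 15 against untreated, 12, 15 and 15 over hCG days 10, 10 and 12, 18 over 12, and slope, a pseudocount of 1 gave 1488, 254, 95, 410, 146, 613, 2, 424 and 1721, where 2381, 503, 152, 681, 273, 999, 0, 753 and 2660 were reported. Without the 3 arrays that stood apart, days 10, 12 and 15 against untreated and 15 over hCG day 10 gave 324, 93, 359 and 573. Fits of 8 arrays gave 172, 7 and 230 against untreated, 56 and 394 for days 12 and 15 over hCG day 10, and 206 for 18 over 12. Day 12 against untreated gave 233 in the upper 50% and 254 with array weights. Leaving out each array gave 228 to 577, 73 to 290 and 321 to 774 on days 10, 12 and 15 against untreated, 151 to 286 and 592 to 1017 for days 12 and 15 over hCG day 10, 0 to 4 for 15 over 12, 335 to 792 for 18 over 12 and 0 to 1 for 18 over 15.

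The labels share replicate numbers 1 to 4, and same-numbered arrays had deviations with r of -0.28 to 0.36. Of 40 pairs, 14 were above 0.1, and 7 of 20 arrays were closest to one of their own number. These values cannot tell whether the numbers pair the samples. With the number as a replicate block the counts were 2309 for F and 417, 160, 673 and 2002 against untreated, and no member call changed. Dim probe sets limit what could be seen for HSD17B1 and for the dimmer probe sets of CYP17A1 and HSD17B4.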
